A study of Mus musculus with 8 samples.

Results

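The rows described here are the collagen chains other than those of collagen V, chosen by gene symbol alone from a table of 24630 genes. The rule found 41 chains, of which 8 are fibrillar, 8 belong to basement membranes, 9 are FACIT chains (fibril-associated collagens with interrupted triple helices) and 16 fall outside these classes. They were measured by RNA sequencing in muscle stem cells, which regenerate muscle fibres after injury, from male C57BL/6 mice. The groups were 4 old animals aged 22 months and 4 young animals aged 4 months, with 1 library per animal and no pooling. Per the labels, the cells were sorted from limb muscle as negative for CD45, CD31 and Sca1 and positive for VCAM, and were not cultured. No allele, transgene or treatment is named for either group. The replicates are separate animals, and all of them are male.

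Collagens are built from 3 chains wound into a triple helix, and some collagen types can combine different chains. Fibrillar collagens I and III make the load-bearing fibrils of the connective tissue between muscle fibres. Collagen IV is the meshwork of the basement membrane that covers each muscle fibre and the stem cells lying under it, with collagens XV and XVIII at its margin. FACIT chains sit on the surface of fibrils, and collagen VI forms beaded filaments next to the basement membrane and is a known component of the stem cell niche.

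In muscle stem cells of old mice, Col8a1 took a larger share of reads than in those of young mice. Col3a1, Col15a1, Col1a1, Col6a1, Col4a1 and Col18a1 took a smaller one. In the values as the authors deposited them, Col6a1, Col4a1 and Col18a1 were not called, and the others kept their direction. Col8a1 encodes a chain of collagen VIII, a short network-forming collagen of vessel walls and of the cornea, and averaged 20.3 ± 3.37 RPKM in old mice, against 5.63 ± 2.10 RPKM in young mice (SD, n = 4 each). Col3a1, the chain of collagen III, averaged 36.1 ± 3.49 RPKM in old mice, against 78.1 ± 17.8 RPKM in young mice. Within collagen I, the alpha 1 chain stood, per length, at 1.20 to 1.72 times the alpha 2 chain in the old libraries. In the young ones it stood at 2.47 to 2.92 times. RPKM are reads scaled by gene length and by library size, as the authors deposited them.

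Each chain is compared both ways that the libraries can be scaled. As a share of reads, each value is divided by all reads in genes (called library totals in the plots). As deposited, the values stand as the authors scaled them. The library sizes behind them were 0.678 to 0.849 times the reads in genes in old libraries and 1.14 to 1.64 times in young ones. How the authors set these sizes is not given in the sources used here. Among the 5703 genes averaging 5 RPKM or more, the median log2 fold change was -0.01 as a share of reads and 0.64 as deposited, old over young, so that a typical gene stands higher in old animals as deposited. Log2 fold changes are old over young, on log2(value + 1), with the SE, and they understate the difference of low genes. Adjusted p-values are from limma with Benjamini-Hochberg adjustment over all genes tested, at a threshold of 0.05. In the text, "rose" and "fell" are used for chains past that threshold as a share of reads, and the deposited scale is given beside them.

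The old libraries held 20.1 to 24.9 M reads in genes and the young libraries 1.91 to 6.56 M, so that depth and age cannot be told apart. In a gene of 1 kb, 3 reads stood for 0.157 to 0.181 RPKM in old and 0.403 to 0.959 RPKM in young libraries, and this covers counting error only. All 12 markers of muscle stem cells that were listed for a check of the sort had a mean of at least 1 RPKM, and Pax7, the defining transcription factor, averaged 13.5 RPKM in old mice, against 14.1 RPKM in young mice. Of these 12, Myod1 and Vcam1 rose and Pax7, Calcr and Cdh15 fell as a share of reads. Among the 5703 genes tested, 12.3% were higher and 12.7% lower in old animals on that scale. Myod1 averaged 1030 RPKM in old mice, against 368 RPKM in young mice, Vcam1, which the sort used, 613 against 221 RPKM, and Calcr 22.5 against 42.5 RPKM. Of 10 listed tenocyte (tendon cell) markers, 8 were tested and all 8 rose, with a summed level of 2094 to 6477 CPM, taken over reads in genes, in old libraries and 814 to 1268 in young ones. Of 13 fibroblast markers, 8 were tested, 3 rose and 0 fell, with sums of 3976 to 6779 in old and 4976 to 6469 in young libraries. Endothelial markers summed to 196 to 495 in old and 510 to 593 in young libraries, pericyte and smooth muscle markers to 473 to 1085 and 871 to 1106, muscle fibre markers to 122 to 779 and 362 to 746, Schwann cell markers to 102 to 213 and 124 to 184, and leukocyte markers to 57.0 to 191 and 128 to 349. Of the markers tested in these lists, 2 of 7 pericyte and smooth muscle and 1 of 6 muscle fibre markers fell as a share of reads. None of the tested endothelial, Schwann cell or leukocyte markers was called, although the endothelial sum of every old library lay below that of every young one. The part of these other cell types in the collagen results was not tested. The defining leukocyte marker Ptprc (CD45) averaged 0.241 RPKM in old mice, against 1.04 RPKM in young mice. Its mean over all libraries lay under 1 RPKM, and it was not tested. In mean RPKM as deposited, a scale on which a typical gene stands higher in old animals, Cd68 (8.85 against 5.58) and Lyz2 (24.1 against 17.9) were higher in old mice. The other listed leukocyte markers were lower. For Cd68 and Lyz2 the old and young libraries overlapped as deposited, and neither was called as a share of reads. The tendon factor Scx lay at 0.185 to 0.465 RPKM in old and 0.0923 to 0.709 RPKM in young libraries. In bulk samples like these, fewer cells of a type and less RNA per cell cannot be told apart.

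Of the 19 chains with a mean of at least 1 RPKM, 16 had an entry in the RefSeq promoter table for GRCm38.p6, which spans 250 bases before to 50 bases after a gene's start. Shown are 6 promoters, those of Col8a1 and Col3a1, which were called in opposite directions on both scales, and those of the 2 collagen IV gene pairs, each 5′ to 3′ on the gene's own strand. They lie at chr16:57754688-57754987 on the minus strand for Col8a1, chrX:141474027-141474326 on the minus strand for Col4a6, chrX:141475169-141475468 on the plus strand for Col4a5 and chr1:45311288-45311587 on the plus strand for Col3a1. Those of Col8a1, Col4a6, Col4a5 and Col3a1 carry in capitals the letters of the motifs searched, the TATA box (letters TATAAA), the CCAAT box and the GC box (letters GGGCGG), on either strand.

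Col8a1: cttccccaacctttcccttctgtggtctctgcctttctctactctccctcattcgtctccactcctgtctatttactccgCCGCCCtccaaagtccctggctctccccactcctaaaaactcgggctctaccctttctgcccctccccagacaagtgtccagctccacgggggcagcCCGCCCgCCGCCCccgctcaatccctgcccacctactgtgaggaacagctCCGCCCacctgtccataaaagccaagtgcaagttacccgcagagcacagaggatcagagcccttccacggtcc
Col4a6: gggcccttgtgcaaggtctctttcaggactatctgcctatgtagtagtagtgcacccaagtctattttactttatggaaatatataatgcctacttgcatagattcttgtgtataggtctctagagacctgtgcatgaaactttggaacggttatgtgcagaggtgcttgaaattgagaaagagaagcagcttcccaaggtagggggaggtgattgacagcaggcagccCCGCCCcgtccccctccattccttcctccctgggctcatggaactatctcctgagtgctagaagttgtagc
Col4a5: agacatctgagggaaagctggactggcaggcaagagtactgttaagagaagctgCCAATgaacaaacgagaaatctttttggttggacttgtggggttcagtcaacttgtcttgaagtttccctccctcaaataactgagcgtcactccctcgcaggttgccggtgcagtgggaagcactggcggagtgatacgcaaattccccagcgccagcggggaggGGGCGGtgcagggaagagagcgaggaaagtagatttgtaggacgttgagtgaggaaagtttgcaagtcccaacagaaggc
Col3a1: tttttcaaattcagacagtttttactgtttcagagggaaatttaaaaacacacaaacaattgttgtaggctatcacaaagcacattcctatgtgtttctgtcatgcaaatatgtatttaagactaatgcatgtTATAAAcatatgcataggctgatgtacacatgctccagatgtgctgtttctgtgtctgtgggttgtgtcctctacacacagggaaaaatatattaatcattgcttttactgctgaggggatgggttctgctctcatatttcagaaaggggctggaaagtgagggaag

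The Col8a1 window held 4 matches to GGGCGG, and the windows of Col4a6 and Col4a5 held 1 each, that of Col4a5 with 1 match to CCAAT. The Col3a1 window held 1 match to TATAAA and none to GGGCGG. Over all 32851 promoter windows of the table, 35.7% held GGGCGG, 13.6% TATAAA and 37.4% CCAAT on either strand. These matches describe the letters in the window and name no bound factor.

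Collagen IV genes lie head to head in pairs, and this is seen in the windows of Col4a1 and Col4a2, which are transcribed away from each other. The Col4a1 window is chr8:11312777-11313076 on the minus strand and that of Col4a2 chr8:11312555-11312854 on the plus strand. Their starts lie 21 bases apart, and the windows share 78 bases, printed in capitals in both and reading as each other's reverse complement.

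Col4a1: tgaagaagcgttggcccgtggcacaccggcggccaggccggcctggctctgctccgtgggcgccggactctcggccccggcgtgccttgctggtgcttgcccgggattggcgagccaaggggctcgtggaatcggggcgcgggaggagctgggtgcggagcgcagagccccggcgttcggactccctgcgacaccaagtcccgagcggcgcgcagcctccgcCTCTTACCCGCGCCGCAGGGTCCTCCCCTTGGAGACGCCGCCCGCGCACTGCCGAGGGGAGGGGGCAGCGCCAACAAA
Col4a2: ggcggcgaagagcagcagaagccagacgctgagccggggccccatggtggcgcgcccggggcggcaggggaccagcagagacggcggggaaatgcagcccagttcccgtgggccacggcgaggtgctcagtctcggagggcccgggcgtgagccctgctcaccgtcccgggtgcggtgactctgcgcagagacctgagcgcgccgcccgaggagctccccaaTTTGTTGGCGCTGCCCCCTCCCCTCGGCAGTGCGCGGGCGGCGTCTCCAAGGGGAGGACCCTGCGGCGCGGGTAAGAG

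The starts of Col4a5 and Col4a6 on chromosome X lie 1343 bases apart, also facing away from each other, and their windows share no base. The first exons of Col4a1 and Col4a2 overlap on opposite strands. The library kit is not stated to mark strand, so reads in that overlap cannot be assigned to one of them.

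Of the 41 chains, 10 had a mean of at least 5 RPKM and were tested with all genes above that level. Of these, 6 fell, 1 rose and 3 were not called as a share of reads, where 12.7% of the 5703 genes tested were lower and 12.3% higher in old animals. The median log2 fold change of the 10 was -0.83 as a share of reads, beside -0.01 for all genes tested. As deposited 3 of the 10 were lower, 2 higher and 5 not called, where 1.12% of all genes tested were lower and 68.1% higher, and the median of the 10 was -0.16 beside 0.64. Counting libraries that do not overlap gave 6 chains below and 1 above as a share of reads, beside 13.4% and 13.8% of all genes tested, and 2 below and 2 above as deposited, beside 0.473% and 61.2%. The 3 chains lower as deposited, Col3a1, Col1a1 and Col15a1, fell as a share of reads as well.

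**Figure D1:**
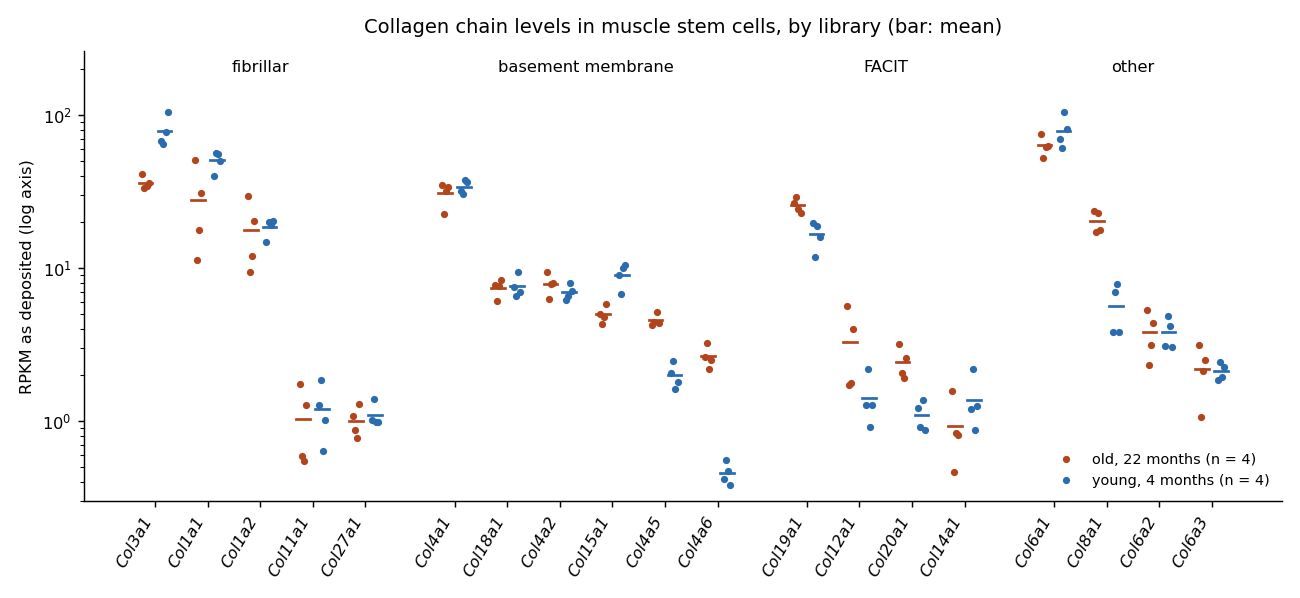
Deposited RPKM on a log axis for the 19 collagen chains with a mean of at least 1 RPKM, with 1 point per library and a bar at the mean of 4, old left of young. Col8a1, Col4a6 and Col4a5 stand higher in all 4 old libraries and Col3a1 and Col15a1 lower in all 4, while the old values of Col1a1 spread from 11.3 to 50.7 RPKM.

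Among the fibrillar chains, collagen III gave the most uniform difference. Col3a1 (chromosome 1, 45311538 to 45349706, plus strand, GRCm38) had 41.1, 33.3, 34.2 and 35.9 RPKM in old libraries 1 to 4, against 67.0, 64.7, 77.4 and 104 RPKM in young libraries 1 to 4. Every old library lay below every young one on both scales. Its log2 fold change was -1.75 ± 0.16 as a share of reads (limma, adjusted p = 0.000204) and -1.07 ± 0.21 as deposited (limma, adjusted p = 0.000243). An exon of the predicted gene Gm47302 overlaps it on the same strand, and how the authors counted such reads is not given in the sources used here.

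Collagen I, the main collagen of tendon and muscle connective tissue, is made of 2 alpha 1 chains and 1 alpha 2 chain. Its alpha 1 chain, Col1a1 (chromosome 11, 94936224 to 94953042, plus strand), had 50.7, 11.3, 17.7 and 30.9 RPKM in old libraries, against 40.0, 56.6, 55.4 and 50.3 RPKM in young libraries. The old values varied far more than the young ones, and old library 1 lay within the young range as deposited. As a share of reads all old values lay below the young ones, and Col1a1 fell by 1.71 ± 0.40 in log2 units (limma, adjusted p = 0.0111), with -1.04 ± 0.30 as deposited (adjusted p = 0.00451). Without young libraries 1 and 2, which held the fewest reads, the adjusted p as a share of reads was 0.0565 with a log2 fold change of -1.63, and with no filter on low genes that of the deposited values was 0.0834. The order of the old libraries in Col1a1, with library 1 highest, then 4, 3 and 2, was also the order of their tenocyte sums (6477, 5019, 3609 and 2094 CPM), whose part in the result was not tested. The tenocyte sums were higher in all 4 old libraries than in the young ones, and Col1a1 was lower as a share of reads. In Col1a2 the old libraries stood in the same order, and the part of the tenocyte sums there was not tested either.

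The alpha 2 chain, Col1a2 (chromosome 6, 4504814 to 4541544, plus strand), had 29.5, 9.41, 11.9 and 20.2 RPKM in old libraries, against 14.8, 19.9, 19.0 and 20.3 RPKM in young libraries. The groups overlapped on both scales and the chain was not called, with -0.83 ± 0.33 as a share of reads (limma, adjusted p = 0.0861) and -0.17 ± 0.25 as deposited (adjusted p = 0.544). Without old library 1, which was highest, it was called as a share of reads (adjusted p = 0.0151).

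Ratios of chains within a library do not depend on how libraries are scaled. Their size does depend on the gene lengths used, 6563 bases for Col1a1 and 12426 for Col1a2. Only the difference of a log2 ratio between the ages is free of that choice. Of 6 ratios listed from known assembly, 4 had both chains at 5 RPKM or more and were tested over the 70 assignments of the 8 libraries by exact permutation, two-sided, where 0.0286 is the smallest p possible. The ratio of Col1a1 to Col1a2 was 1.72, 1.20, 1.48 and 1.53 in old libraries, against 2.70, 2.85, 2.92 and 2.47 in young libraries. The groups were far apart relative to their spread, with a log2 ratio of 0.55 ± 0.22 in old and 1.45 ± 0.11 in young animals (SD, n = 4 each, exact permutation p = 0.0286, 0.0381 adjusted over the 4 ratios). The ratio of Col3a1 to Col1a1 was 0.811, 2.95, 1.94 and 1.16 in old libraries, against 1.67, 1.14, 1.40 and 2.06 in young libraries. These values overlapped, with a log2 ratio of 0.61 ± 0.82 in old and 0.61 ± 0.36 in young animals (SD, n = 4 each, exact permutation p = 0.971, also 0.971 adjusted).

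**Figure D2:**
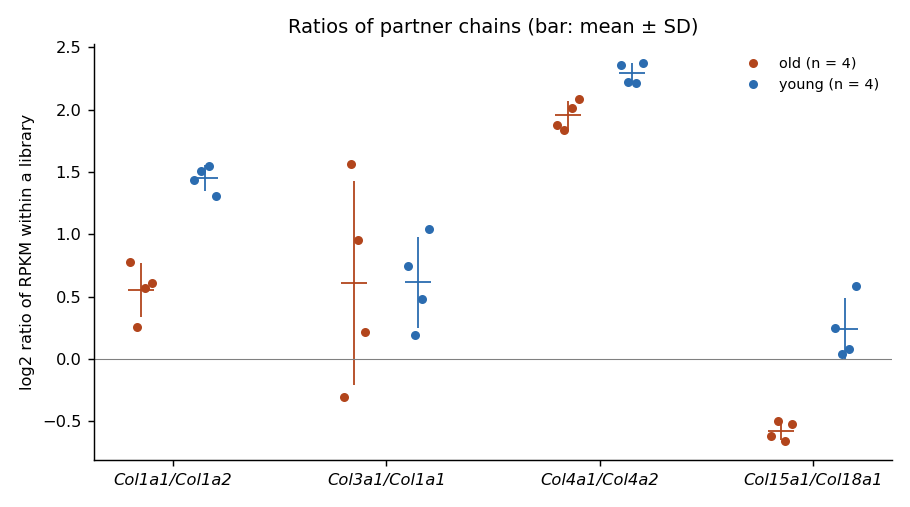
Log2 ratio of the deposited RPKM of 2 chains within each library, old left of young, with the mean ± SD of 4 libraries. The old and young libraries are apart for Col1a1/Col1a2, Col4a1/Col4a2 and Col15a1/Col18a1 and overlap for Col3a1/Col1a1.

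The other fibrillar chains were low. Col11a1, of collagen XI, had a mean of 1.04 ± 0.575 RPKM in old mice, against 1.20 ± 0.510 RPKM in young mice, and Col27a1, of collagen XXVII, 1.01 ± 0.230 and 1.10 ± 0.199 RPKM (SD, n = 4 each). Neither was called on either scale in the test of all genes averaging 1 RPKM or more. Col2a1, Col11a2 and Col24a1 had means under 1 RPKM.

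In the basement membrane class, the collagen IV chains showed 2 patterns. Col4a1 (chromosome 8, 11198423 to 11312826, minus strand) and Col4a2 (11312805 to 11449287, plus strand) form the collagen IV of nearly all basement membranes. Col4a1 had 34.7, 22.4, 31.6 and 34.0 RPKM in old libraries, against 31.6, 30.4, 37.3 and 36.6 RPKM in young libraries. These deposited values overlapped, and the log2 fold change was -0.16 ± 0.20 (limma, adjusted p = 0.492). Col4a1 fell as a share of reads by 0.83 ± 0.19 (adjusted p = 0.0092), with all old libraries below the young ones.

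Its partner Col4a2 had 9.42, 6.29, 7.83 and 8.03 RPKM in old libraries, against 6.17, 6.52, 8.03 and 7.07 RPKM in young libraries. It was not called as a share of reads (-0.45 ± 0.17, limma, adjusted p = 0.079) or as deposited (0.16 ± 0.18, adjusted p = 0.43). Without old library 1 it was called as a share of reads (adjusted p = 0.0456). The ratio of Col4a1 to Col4a2 was 3.68, 3.57, 4.04 and 4.24 in old libraries, against 5.12, 4.66, 4.65 and 5.17 in young libraries. The groups did not overlap, with log2 ratios of 1.95 ± 0.12 in old and 2.29 ± 0.08 in young animals (SD, n = 4 each, exact permutation p = 0.0286, 0.0381 adjusted).

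Col4a5 and Col4a6 form the collagen IV network of smooth muscle and some epithelia, and both lay below 5 RPKM, so their tests come from the 11096 genes averaging 1 RPKM or more. Of those, 7.27% were higher and 22.3% lower in old animals as a share of reads, and 42.1% were higher and 5.34% lower as deposited. Of the 9 chains between 1 and 5 RPKM, Col4a6 was called higher, 0 fell and 8 were not called as a share of reads, and 4 were higher and 0 lower as deposited.

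Col4a6 (chromosome X, 141165403 to 141474076, minus strand) passed the filter of 1 RPKM only through its old libraries, so its call is a description and supports nothing further. It had 2.64, 3.24, 2.21 and 2.52 RPKM in old libraries, against 0.418, 0.561, 0.471 and 0.383 RPKM in young libraries. These rested on 332 to 435 reads per old library and 11 to 28 reads per young library. The young mean of 0.458 RPKM lay below the 90th percentile of the silent receptor genes described with the low chains (0.785 RPKM in young animals), whereas the old mean of 2.65 RPKM lay above theirs (0.0972 RPKM). Old and young libraries did not overlap on either scale, and its log2 fold change was 0.95 ± 0.17 as a share of reads (limma, adjusted p = 0.00454, and 0.00679 with no filter on low genes) and 1.32 ± 0.15 as deposited (adjusted p = 0.000182, and 0.00136 with no filter). With a pseudocount of 0.1 in place of 1, it was 1.67 as a share of reads and 2.30 as deposited.

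Col4a5 (chromosome X, 141475385 to 141689234, plus strand) had 4.24, 4.42, 5.20 and 4.38 RPKM in old libraries, against 2.07, 2.47, 1.62 and 1.79 RPKM in young libraries. Old libraries were all higher as deposited, at 0.90 ± 0.14 in log2 units (limma, adjusted p = 0.000639). As a share of reads the groups overlapped through young library 2, and the chain was not called (0.37 ± 0.19, adjusted p = 0.157). Without that library, the one with the fewest reads, it was called (log2 fold change 0.55, adjusted p = 0.0218). Col4a3 and Col4a4, the chains of the glomerular basement membrane, had means under 1 RPKM.

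The multiplexins, collagens XV and XVIII, carry heparan or chondroitin sulfate chains and release the fragments restin and endostatin. Col15a1 (chromosome 4, 47208161 to 47313167, plus strand) had 5.05, 4.34, 4.82 and 5.80 RPKM in old libraries, against 8.96, 6.80, 9.98 and 10.4 RPKM in young libraries. It was lower in every old library on both scales, with -1.33 ± 0.14 as a share of reads (limma, adjusted p = 0.000292) and -0.73 ± 0.18 as deposited (adjusted p = 0.00143). An exon of the antisense gene Gm12426 overlaps Col15a1, and without strand its reads cannot be told apart.

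Col18a1 (chromosome 10, 77052178 to 77166548, minus strand) had 7.76, 6.12, 7.61 and 8.35 RPKM in old libraries, against 7.55, 6.60, 9.45 and 6.93 RPKM in young libraries. It fell as a share of reads by 0.64 ± 0.16 (limma, adjusted p = 0.0154) and had -0.03 ± 0.18 as deposited (adjusted p = 0.903). The call as a share of reads was lost without young libraries 1 and 2 (adjusted p = 0.0802) and with reads thinned to the smallest library (adjusted p = 0.11). The ratio of Col15a1 to Col18a1 was 0.65, 0.709, 0.634 and 0.695 in old libraries, against 1.19, 1.03, 1.06 and 1.5 in young libraries. Col18a1 was the higher of the pair per length in all old libraries, and Col15a1 in all young ones (log2 ratio -0.58 ± 0.08 and 0.24 ± 0.25, SD, n = 4 each, exact permutation p = 0.0286, 0.0381 adjusted).

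**Figure D3:**
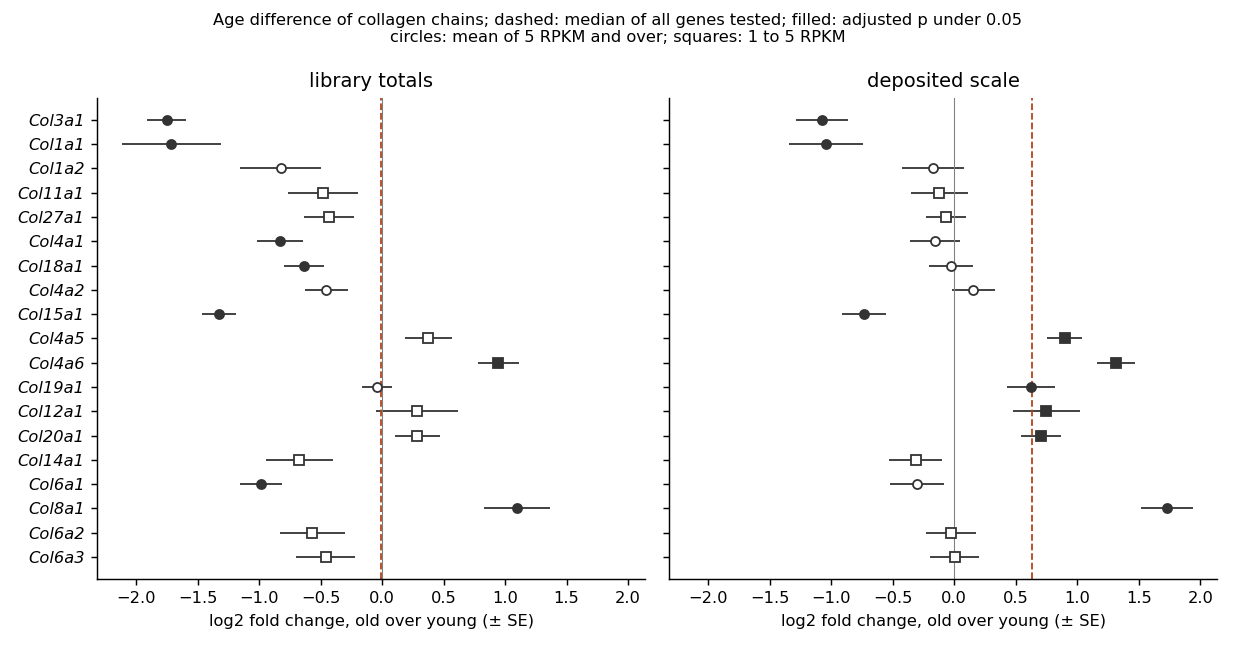
Log2 fold change (old over young, ± SE) of 19 collagen chains as a share of reads (left panel) and as deposited (right panel), with filled symbols for adjusted p under 0.05 and a dashed line at the median of all genes averaging 5 RPKM or more (-0.01 and 0.64). Col8a1, Col4a6, Col4a5, Col12a1 and Col20a1 lie right of the line in both panels, and Col19a1 lies on it. The other chains lie left of it, with Col3a1, Col1a1 and Col15a1 farthest. Among all genes averaging 1 RPKM or more, with which the chains of 1 to 5 RPKM were tested, the medians were -0.19 and 0.36.

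Of the FACIT chains, Col19a1 was the most abundant. Collagen XIX is a minor collagen of basement membrane zones, and its gene spans chromosome 1, 24261890 to 24587472, minus strand. It had 26.7, 29.3, 24.2 and 22.7 RPKM in old libraries, against 19.6, 11.9, 18.9 and 15.9 RPKM in young libraries. All old values were higher as deposited, with 0.62 ± 0.20 (limma, adjusted p = 0.00824), close to the median of 0.64 of all genes tested there. The sign turned as a share of reads and the chain was not called (-0.04 ± 0.12, adjusted p = 0.835).

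The remaining FACIT chains had group means of 3.30 RPKM or less. Col12a1, whose product bridges collagen I fibrils and is abundant in tendon, had 5.68, 1.72, 1.78 and 4.02 RPKM in old libraries, against 1.27, 2.20, 0.917 and 1.28 RPKM in young libraries. Old libraries 1 and 4, which were highest, also had the highest tenocyte sums, and the part of that in the result was not tested. Col12a1 was higher as deposited (0.75 ± 0.27, limma, adjusted p = 0.0385), whereas as a share of reads it was not called (0.29 ± 0.33, adjusted p = 0.537). The call as deposited was lost when any of 5 of the 8 libraries was left out, with a highest adjusted p of 0.122. Col20a1, of collagen XX, averaged 2.44 ± 0.574 RPKM in old mice, against 1.10 ± 0.244 RPKM in young mice (SD, n = 4 each) and was likewise higher only as deposited (0.71 ± 0.17, limma, adjusted p = 0.00459, against 0.28 ± 0.18 and adjusted p = 0.255 as a share of reads). Col14a1, another chain of fibril surfaces, averaged 0.926 ± 0.469 RPKM in old mice, against 1.38 ± 0.561 RPKM in young mice and was not called on either scale.

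Of the chains outside these classes, Col8a1 rose and Col6a1 fell. Col8a1 (chromosome 16, 57624258 to 57754737, minus strand) had 23.7, 17.1, 22.8 and 17.8 RPKM in old libraries, against 3.85, 7.01, 7.83 and 3.82 RPKM in young libraries. Every old library was at least 17.1 RPKM and every young library at most 7.83 RPKM. Its log2 fold change was 1.10 ± 0.27 as a share of reads (limma, adjusted p = 0.0133) and 1.73 ± 0.21 as deposited (adjusted p = 2.08e-06). As a share of reads the lowest old value, 11.6 in library 2, stood just above the highest young value, 11.5 in library 2. Its partner Col8a2 had 0.772 RPKM in old mice, against 0.766 RPKM in young mice on average.

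Col6a1, a chain of collagen VI, had the highest mean RPKM of the members in old animals and, with Col3a1, in young ones. By number of reads, not divided by length, Col6a1 stood below Col3a1 in every library. The Col6a1 gene (chromosome 10, 76708792 to 76726168, minus strand) had 75.5, 52.3, 62.0 and 62.6 RPKM in old libraries, against 69.9, 60.8, 104 and 80.8 RPKM in young libraries. It fell as a share of reads by 0.99 ± 0.17 (limma, adjusted p = 0.00311), with all old libraries below the young ones, and was not called as deposited (-0.30 ± 0.22, adjusted p = 0.224). Without young libraries 1 and 2 it was called there too (-0.54, adjusted p = 0.0494). Collagen VI is assembled from equal parts of an alpha 1, an alpha 2 and another chain, commonly alpha 3, yet Col6a2 averaged 3.80 ± 1.32 RPKM in old mice, against 3.80 ± 0.888 RPKM in young mice and Col6a3 2.21 ± 0.869 and 2.11 ± 0.272 RPKM (SD, n = 4 each). Per length Col6a1 was 14.2 to 22.4 times Col6a2 in old and 12.5 to 26.4 times in young libraries, with overlap between the ages. Neither Col6a2 nor Col6a3 was called on either scale.

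Of all reads in genes, the 41 chains made up 0.211, 0.101, 0.144 and 0.160% in old libraries, against 0.272, 0.385, 0.305 and 0.317% in young libraries. All old libraries lay below all young ones on this scale. Relative to the deposited library sizes, the mean was 0.193% ± 0.0427 in old and 0.250% ± 0.0258 in young animals (SD, n = 4 each), and the libraries overlapped. The fibrillar class stood at 0.0632% ± 0.0259 of reads in genes in old and 0.175% ± 0.0324 in young animals, with no overlap under either library size. The basement membrane class stood at 0.0341% ± 0.00751 in old and 0.0573% ± 0.00712 in young animals. Chains outside the named classes stood at 0.0371% ± 0.00943 in old and 0.0649% ± 0.0102 in young animals. Both lay below without overlap as a share of reads and overlapped with the deposited library sizes. The chains outside the named classes include Col8a1, whose reads are known only up to a factor common to all libraries. The level and the overlap of that class, and the sum of all 41 chains, depend on that factor. The FACIT class stood at 0.0199% ± 0.00409 of reads in genes in old and 0.0223% ± 0.00391 in young animals, with overlap. With the deposited library sizes the FACIT direction turned, at 0.0252% ± 0.00378 in old and 0.0173% ± 0.00173 in young animals, and all old libraries lay above the young ones.

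The make-up of the collagen reads also differed. Col3a1 took 16.2, 21.9, 19.4 and 17.4% of all collagen reads in old libraries, against 29.6, 27.0, 28.3 and 36.9% in young libraries. Col8a1 took 4.49 to 6.73% in old and 0.708 to 1.52% in young libraries, where its number of reads is known only up to a factor common to all libraries. Col19a1 took 7.39 to 13.5% in old and 3.48 to 6.07% in young libraries, so that this FACIT chain held a larger part of collagen reads in every old library even though its share of all reads was not called. Col4a6 took 0.847 to 1.73% in old and 0.111 to 0.190% in young libraries, and Col4a5 1.14 to 2.02% and 0.405 to 0.707%. The parts of Col1a2 (7.82 to 14.8% in old, 8.29 to 10.5% in young) and Col6a1 (13.3 to 15.7% and 11.3 to 16.9%) overlapped. Parts of a whole move against one another, so these percentages are a description and were not tested.

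**Figure D4:**
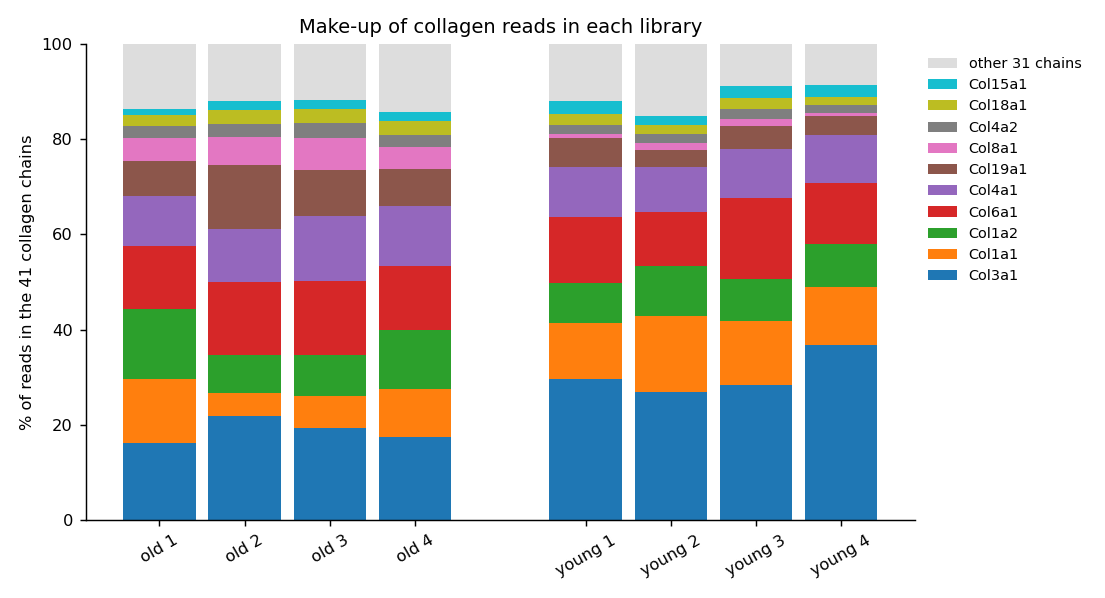
Percent of the reads in all 41 collagen chains taken by each of 10 chains and by the rest, 1 bar per library, old left of young. The Col3a1 part is 16.2 to 21.9% in old and 27.0 to 36.9% in young libraries, and the Col8a1 and Col19a1 parts are larger in old libraries.

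The other 22 chains had a mean under 1 RPKM over all 8 libraries and were not tested. Their group means ranged from 0.0328 to 0.772 RPKM in old and 0.487 to 1.38 RPKM in young animals, with medians of 0.214 and 0.786. Of these, 20 were lower in every old library than in every young one as a share of reads and 16 as deposited. Among all 13534 genes with a mean under 1 RPKM, 68.5% were lower without overlap as a share of reads and 44.3% as deposited. Genes of 2 receptor families that are silent in muscle, the olfactory and vomeronasal receptors (1414 genes), averaged 0.0536 ± 0.00956 RPKM in old and 0.362 ± 0.177 RPKM in young libraries (SD, n = 4 each). The group mean of 18 of the 22 chains in old and 11 in young animals lay above the 90th percentile of these receptor genes (0.0972 RPKM in old, 0.785 RPKM in young). Both the low chains and the receptor genes were lower in old libraries, and the low chains' differences are not read as changes of a collagen. The 22 chains include the cartilage chains Col2a1, Col9a1, Col9a2, Col9a3, Col10a1 and Col11a2, the skin chains Col7a1 and Col17a1, and the collagen VI chains Col6a4, Col6a5 and Col6a6.

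**Figure D5:**
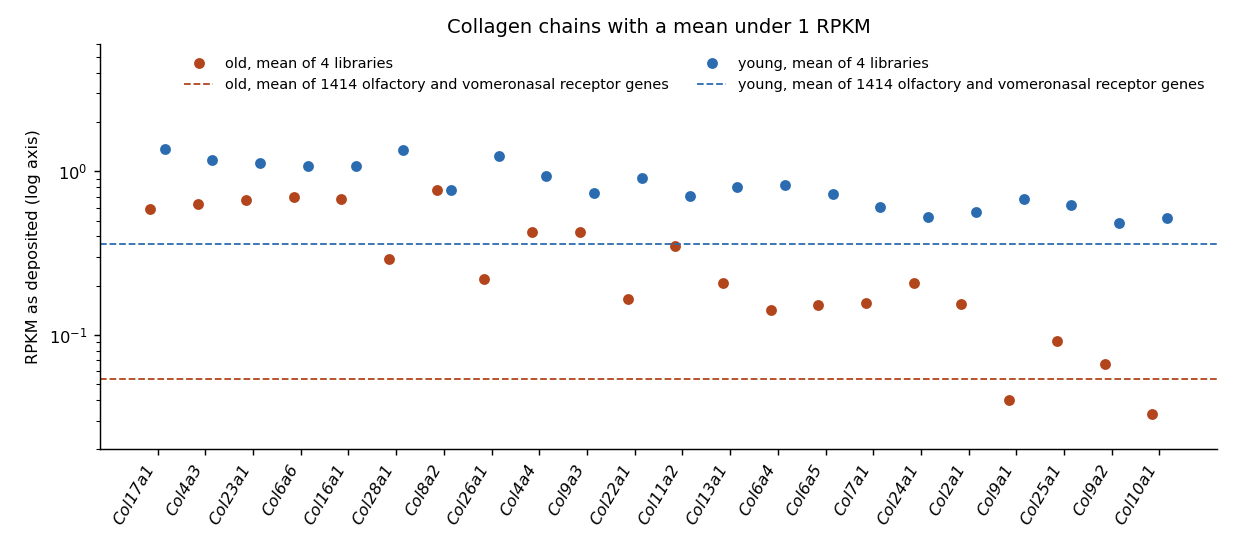
Group means in RPKM (log axis) of the 22 collagen chains with a mean under 1 RPKM, old left of young, with dashed lines at the mean of 1414 olfactory and vomeronasal receptor genes in each group. Old means lie below young means for nearly all chains, as do the dashed lines (0.0536 RPKM in old, 0.362 RPKM in young).

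Making a collagen takes more than its chains. Of 31 listed genes of collagen synthesis and processing (hydroxylases, chaperones, export factors and procollagen proteases), 20 were tested, of which 6 fell, 1 rose and 13 were not called as a share of reads, with a median log2 fold change of -0.34 beside -0.01 for all genes tested. Of all genes tested, 12.7% were lower and 12.3% higher on that scale. As deposited 1 was lower, 6 were higher and 13 were not called, where 1.12% of all genes tested were lower and 68.1% higher, and the median was 0.30 beside 0.64. Sparc, a collagen-binding matricellular chaperone, averaged 219 ± 19.4 RPKM in old mice, against 367 ± 118 RPKM in young mice (SD, n = 4 each) and had -1.38 ± 0.17 as a share of reads (limma, adjusted p = 0.000621) and -0.68 ± 0.25 as deposited (adjusted p = 0.019). Fkbp10, a prolyl isomerase of the endoplasmic reticulum, fell as a share of reads by 0.88 ± 0.15 and Plod1, a lysyl hydroxylase, by 0.61 ± 0.15. The export factor Mia2 fell by 0.58 ± 0.18, and none of Fkbp10, Plod1 and Mia2 was called as deposited. Creb3l1, a transcription factor of collagen secretion, rose by 0.61 ± 0.19 (limma, adjusted p = 0.038) and had 1.24 ± 0.20 as deposited.

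Of 14 listed collagen receptors and uptake genes, 6 were tested, of which 2 rose, 0 fell and 4 were not called as a share of reads, and 3 were higher and 0 lower as deposited. Of all genes tested, 12.3% were higher as a share of reads and 68.1% as deposited. The median log2 fold change of the 6 was -0.14 as a share of reads, beside -0.01 for all genes tested, and 0.50 beside 0.64 as deposited. Ddr2, a receptor tyrosine kinase that binds fibrillar collagens, averaged 65.1 ± 10.4 RPKM in old mice, against 20.8 ± 2.85 RPKM in young mice (SD, n = 4 each). It rose by 0.92 ± 0.12 as a share of reads (limma, adjusted p = 0.00096) and 1.59 ± 0.20 as deposited. Sdc1, a heparan sulfate proteoglycan that binds collagens, rose by 0.41 ± 0.12 as a share of reads (limma, adjusted p = 0.0242) and 1.06 ± 0.19 as deposited.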

How the data were processed

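RNA of sorted muscle stem cells of 8 mice was measured with oligo(dT)-primed cDNA and Illumina sequencing, per the labels' protocols. The authors deposited 1 table of RPKM for 24630 genes, and the submitters' processing notes name the tools STAR, Trim Galore, Subread, featureCounts and edgeR and the builds GRCm38 and mm10. Their settings are not given here. Within a gene, the deposited values step by the worth of 1 read (100% of 23461 genes with reads came out whole, within 0.03), which gave reads per gene and library totals. Gene length was as in GENCODE M21 for 81.2% of genes. For the others, Col8a1 and Col20a1 among them, reads are known only up to a factor common to all libraries. Zeros had been replaced by a small value in 8293 genes.

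Genes averaging 5 RPKM or more (or 1 RPKM for lower chains) were tested with limma-trend 3.58.1 (R 4.3.3) on log2(value + 1), old over young, without covariates. The values are RPKM and not counts, so the planned edgeR and DESeq2 alternatives were not run. On simulated reads of 5703 genes the test found 40% of genes changed 1.5-fold, 90% of those changed 2-fold and 100% of those changed 3-fold. In that simulation 15 unchanged genes were called. All genes and both ages were simulated with the same dispersion (spread beyond counting error). These rates do not carry over to chains with a larger spread, such as Col1a1 in old libraries (mean 27.6, SD 17.4 RPKM). Chains of at least 5 RPKM are named with every library, those of 1 to 5 RPKM with group means (and every library for Col4a5, Col4a6 and Col12a1, chosen after their values were seen), and the rest are counted. In the 2 pathway lists, the 4 genes past the threshold with the largest change in each direction are named. The members, lists and filters were chosen with earlier results of these data known. Alternatives were other filters, pseudocounts, voom, thinning, leaving libraries out and a replicate block. Promoters are from RefSeq on GRCm38.p6, and coordinates from GENCODE M21 on GRCm38.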

Additional observations from a re-analysis of the deposited data

Results flagged for a closer look

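Col27a1 in the young libraries had 1 library far from the others, with 1.4 RPKM in library 2, the one with the fewest reads, against 0.990 to 1.02 RPKM in the other 3. Its gap to the nearest library was 0.919 of the range, above the critical share of 0.829 for 4 samples. In all, 48 groups of 4 values were examined (chains of at least 1 RPKM, partner ratios and the summed share), of which chance flags about 1 in 20.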

How the results depend on the processing

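Of the calls on the 10 chains with a mean of at least 5 RPKM, those of Col3a1, Col15a1 and Col8a1 kept their direction and their side of the threshold under all alternatives run. As a share of reads, the log2 fold changes ranged from -1.85 to -1.62 for Col3a1 and from 0.80 to 1.32 for Col8a1. The highest adjusted p (limma) of Col8a1 on that scale was 0.041. With the deposited scaling the log2 fold changes were -1.07 for Col3a1 and 1.73 for Col8a1. With the deposited scaling in place of library totals, 2 chains were higher and 3 lower, and Col19a1 turned to 0.62. As a share of reads 25 chains passed without a filter, 2 higher and 23 lower, and 2 were higher at a mean of at least 1 RPKM. As deposited 20 passed without a filter, 5 higher and 15 lower, and 9 passed at 1 RPKM, of which 6 were higher. More genes are tested under these lower filters, and the chains added are the low ones. Leaving out 1 library at a time gave 7 to 9 chains as a share of reads, 1 higher and 6 to 8 lower, and 5 as deposited, 2 higher and 3 lower. The log2 ratio differences, old minus young, then ranged from -0.97 to -0.80 for Col1a1/Col1a2, -0.38 to -0.30 for Col4a1/Col4a2, -0.88 to -0.70 for Col15a1/Col18a1 and -0.33 to 0.30 for Col3a1/Col1a1. Thinned reads gave -1.06 for Col15a1/Col18a1, and the cause was not tested. The summed share differed by -0.165 percentage points, from -0.184 to -0.144 with 1 library left out and by -0.0569 with the deposited scaling. With the replicate number as a block, 7 chains passed as a share of reads and 5 as deposited, as without it. Same-numbered libraries correlated at -0.24 to 0.39 in their deviations from group means. In replicate 3 alone they correlated more than the best other pair (0.39 against 0.15 as a share of reads). These values cannot show whether the numbers pair the animals. For single chains, 531 alternatives stayed on the same side of the threshold, 14 lost the call, 5 gained one and 1 turned in sign with a call. Sign changes with neither value called are among the 531, as for Col4a2 (-0.45 as a share of reads, 0.16 with the deposited scaling). The count tests of edgeR and DESeq2 were not run, because the file holds RPKM. The tests of Col4a5, Col4a6 and other chains of 1 to 5 RPKM with other pseudocounts, thinned reads or libraries left out were chosen after seeing the data. The young libraries' depth limits the low chains, where 11 to 28 reads stood behind Col4a6.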
